A study of Mus musculus with 4 samples.

Results

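The 10 genes Esm1, Apln, Aplnr, Adm, Kcne3, Plaur, Cd34, Igfbp3, Cxcr4 and Trp53i11 are used to mark tip cells and sprouting vessels, and they were read from RNA sequencing of brain endothelial cells of newborn mice. They were chosen by gene symbol from the deposited count tables, which together list 21578 genes, and all 10 were found. Brain endothelial cells were taken at postnatal day 0 (P0) from C57BL/6 mice of the genotypes Pd1fl/fl, whose Pd1 gene is flanked by loxP sites, and Pd1cKO-Tie2, in which a Tie2-driven Cre deletes it, with 2 libraries per genotype and no other treatment. Tie2 is active in endothelial cells and also in part of the blood cell lineage, so the deletion need not be limited to vessels. The study describes the sequenced cells as purified by flow cytometry, and its sorting method for brain endothelial cells used antibodies against CD31 and CD45. The sources used here do not say whether animals were pooled or whether the libraries of a genotype came from separate animals, so p-values measure only the spread between these libraries, which may be technical.

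A new vessel branch is led by a tip cell, which extends filopodia toward vascular endothelial growth factor (VEGF), while the stalk cells behind it divide and form the lumen. Notch signalling between neighbours keeps most cells out of the tip position. Tip cells are known for secreting ligands such as apelin, adrenomedullin and Esm1, and for carrying Cxcr4, Plaur and the sialomucin Cd34. Vessels of the brain are still sprouting around birth. The question here was whether the level of these genes differed between endothelial cells with and without the Pd1 deletion.

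Levels are given in CPM, which relates the reads of a gene to all counted reads of its library, after scaling by the TMM method of edgeR. Depth was between 13715837 and 14359990 counts in Pd1fl/fl, while the Pd1cKO-Tie2 libraries reached 24147311 and 14157027. The numbers of the libraries are those of the table columns, and no sample label holds that of Pd1cKO-Tie2 replicate 2, of which only the genotype is known. Pdcd1, the gene that encodes PD-1, was counted 32 times in Pd1fl/fl replicate 1 and not at all in the other 3 libraries. Since Pd1fl/fl replicate 2 was also at 0, the deletion could not be checked from these counts. Where nothing was counted, up to 3 counts remain possible, which is 0.124 to 0.219 CPM before scaling. Intervals and limits of this kind cover counting error only. All 15 endothelial markers examined were detected in every library, with a summed level of 12862 and 11819 CPM in Pd1fl/fl against 15323 and 16294 CPM in Pd1cKO-Tie2. Markers of microglia and macrophages were detected as well, with a summed level of 1943 and 2430 CPM in Pd1fl/fl against 759 and 1695 CPM in Pd1cKO-Tie2. In a bulk sample, fewer cells of a type and less RNA per cell cannot be told apart. Xist, the RNA of the inactive X chromosome, was counted 0 times in both Pd1fl/fl libraries and 6706 and 378 times in the Pd1cKO-Tie2 libraries. A difference in the sex of the animals can therefore not be told apart from genotype in any comparison below.

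Promoter sequence is shown for Apln, which had the smallest p of the 10 genes, and for Esm1, which had the most negative fold change, as the 250 bases before the annotated start in RefSeq (GRCm38.p6, 5′ to 3′ on the strand of the gene). The Apln window is chrX:48034854-48035103 on the minus strand, and the Esm1 window is chr13:113209409-113209658 on the plus strand. The capitals mark a match to AGGAAG, the core of many ETS factor motifs, read on its other strand in Apln, and a match to GCGTG, a form of the hypoxia response element core, in Esm1.
Apln: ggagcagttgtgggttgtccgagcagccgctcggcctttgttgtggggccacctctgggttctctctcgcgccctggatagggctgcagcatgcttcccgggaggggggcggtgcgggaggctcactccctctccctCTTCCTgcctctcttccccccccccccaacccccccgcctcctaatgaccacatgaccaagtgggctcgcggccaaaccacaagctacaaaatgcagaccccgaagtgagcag
Esm1: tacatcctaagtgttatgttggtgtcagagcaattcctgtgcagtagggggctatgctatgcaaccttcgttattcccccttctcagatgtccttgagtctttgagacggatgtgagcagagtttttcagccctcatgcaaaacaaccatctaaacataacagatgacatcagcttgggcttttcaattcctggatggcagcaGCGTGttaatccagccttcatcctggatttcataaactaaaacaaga
The capitals begin 113 bases before the start in Apln and 47 bases before it in Esm1. RefSeq promoters matched 9 of the 10 genes, all but Aplnr. Both strands were searched for ACGTG or GCGTG, which occurred before Adm, Igfbp3, Esm1, Cxcr4, Kcne3 and Trp53i11 (6 of 9 genes). This was 6 of the 10 windows, against 38.6% of all 32851 promoter windows of this length. AGGAAG occurred before Apln, Plaur, Cd34 and Kcne3 (4 of 9 genes), in 5 of the 10 windows and in 29.5% of all windows. TGACTCA, the AP-1 element, occurred before Plaur alone among the 9 genes, in 1 of the 10 windows and in 4.46% of all windows. A match is a description of the letters and no evidence of a bound factor.

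The difference between the genotypes was tested for every gene with the quasi-likelihood F test of edgeR, and all 10 genes were among the 15909 that passed its filter on low counts. None of the 10 met the criterion of the study, a fold change of at least 2 with a p of 0.05 or less, which 4.02% of all tested genes met (1.41% higher and 2.61% lower in Pd1cKO-Tie2). By edgeR's quasi-likelihood test 0 of the 10 had a Benjamini-Hochberg adjusted p under 0.05, as had 0.00% of all tested genes, and 2 of the 10, Apln and Aplnr, had an unadjusted p under 0.05, against 6.39% of all tested genes (2.84% higher and 3.55% lower). DESeq2 likewise gave 0 of the 10 by the criterion (4.34% of all genes), 0 at an adjusted p under 0.05 (0.672%) and Apln and Aplnr at an unadjusted p under 0.05 (6.33%). With limma-voom, 0 of the 10 met the criterion (3.17%) or had an adjusted p under 0.05 (0.00%), and Apln and Aplnr again had an unadjusted p under 0.05 (6.45%). The libraries of the genotypes did not overlap in 6 of the 10 genes, against 35.8% of all tested genes. Of these 6, Apln, Aplnr, Igfbp3 and Cd34 lay higher in Pd1cKO-Tie2 (17.7% of all tested genes did so) and Esm1 and Cxcr4 lay lower (18.1% did so). The log2 fold change was above 0 in 7 of the 10, against 49.6% of all tested genes. Its median over the 10 genes was 0.23, and that of all tested genes was 0.00 after rounding. When the libraries were instead scaled to the summed endothelial markers, the median of the 10 genes was -0.12 and that of all tested genes was -0.36.

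**Figure D1:**
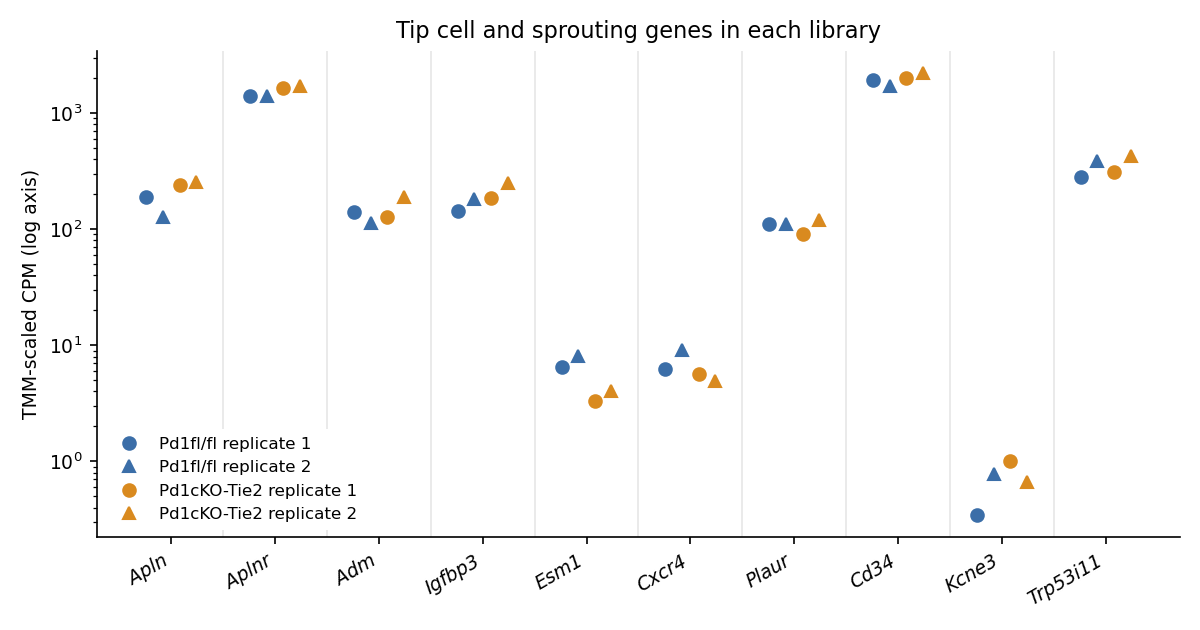
TMM-scaled CPM (log axis) of each of the 10 genes in the 4 libraries, where each point is 1 library, coloured by genotype. The genotypes lie apart for Apln, Aplnr, Igfbp3, Cd34, Esm1 and Cxcr4 and overlap for Adm, Plaur, Kcne3 and Trp53i11.

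Apln (ENSMUSG00000037010, GRCm38 chrX:48025146-48034853, minus strand) encodes apelin, a secreted peptide made by tip cells. Its level was 191 and 127 CPM in the Pd1fl/fl libraries and 238 and 256 CPM in the Pd1cKO-Tie2 libraries. Both Pd1cKO-Tie2 libraries were thus above both Pd1fl/fl libraries, and they lay close to each other while the Pd1fl/fl libraries lay further apart. The mean was 159 ± 44.7 CPM in Pd1fl/fl against 247 ± 12.3 CPM in Pd1cKO-Tie2 (SD, n = 2). This was a log2 fold change of 0.64 with a standard error of 0.23 (adjusted p = 0.753, edgeR's quasi-likelihood test). Apln had the smallest p of the 10 genes and ranked 708 by p among all 15909. DESeq2 gave an adjusted p = 0.269, and over all alternatives the adjusted p of Apln ranged from 0.269 to 0.998. The log2 fold change was 0.96 without Pd1fl/fl replicate 1, 0.38 without Pd1fl/fl replicate 2, 0.69 without Pd1cKO-Tie2 replicate 1 and 0.59 without Pd1cKO-Tie2 replicate 2, and of these only the first kept an unadjusted p under 0.05. Fits without a library leave 1 library in a genotype, which is assumed to vary like the pair of the other genotype, so the loss of a p says little about stability. Apln lies on the X chromosome, and Xist, the RNA of the inactive X, was at 0 in both Pd1fl/fl libraries and at 281 and 27.7 CPM in the Pd1cKO-Tie2 libraries. The part of X dosage in the Apln difference was not tested.

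Aplnr (ENSMUSG00000044338, chr2:85136225-85139923, plus strand) encodes the apelin receptor, which is found on stalk and venous endothelial cells. It stood at 1401 and 1394 CPM in Pd1fl/fl against at 1635 and 1704 CPM in Pd1cKO-Tie2. The Pd1fl/fl libraries were almost equal, and both Pd1cKO-Tie2 libraries were above them. The log2 fold change was 0.26 (standard error 0.10, adjusted p = 0.760 by edgeR's quasi-likelihood test). Scaling to the endothelial markers turned the sign (log2 fold change -0.10), because the markers themselves had a median log2 fold change of 0.36. Its unadjusted p was under 0.05 in this fit, with RLE scaling and by DESeq2 and limma-voom, but not with upper quartile or library size scaling, another filter, the replicate block or the endothelial scaling. Without 1 library the log2 fold change was 0.23 to 0.30, with no unadjusted p under 0.05. Ligand and receptor were therefore both on the higher side in Pd1cKO-Tie2 under TMM scaling, and under endothelial scaling the ligand kept its sign (log2 fold change 0.29) and the receptor did not.

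Adm (ENSMUSG00000030790, chr7:110627661-110629820, plus strand) encodes adrenomedullin, a vasoactive peptide of tip cells that is also induced by hypoxia. Its level was 139 and 113 CPM in Pd1fl/fl against 128 and 187 CPM in Pd1cKO-Tie2. The genotypes overlapped, since 1 Pd1cKO-Tie2 library lay between the Pd1fl/fl libraries and the other lay above them. Its log2 fold change was 0.32 (standard error 0.25, adjusted p = 0.979 by edgeR's quasi-likelihood test), and the sign turned under endothelial scaling (-0.04). The value rested on the Pd1cKO-Tie2 libraries, being 0.58 without replicate 1 and 0.02 without replicate 2 of that genotype, and it was 0.48 and 0.18 without Pd1fl/fl replicate 1 and 2.

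Igfbp3 (ENSMUSG00000020427, chr11:7206086-7213923, minus strand) encodes a secreted protein that binds insulin-like growth factors. It was measured at 142 and 182 CPM in Pd1fl/fl against at 186 and 247 CPM in Pd1cKO-Tie2. The genotypes did not overlap, but the upper Pd1fl/fl and the lower Pd1cKO-Tie2 library were close, and they overlapped when libraries were scaled by total count alone. The fitted difference was 0.42 on the log2 scale (standard error 0.22, adjusted p = 0.906 by edgeR's quasi-likelihood test). It was 0.21 without Pd1cKO-Tie2 replicate 2, 0.26 without Pd1fl/fl replicate 1, and 0.61 and 0.62 without Pd1fl/fl replicate 2 and Pd1cKO-Tie2 replicate 1.

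Esm1 (ENSMUSG00000042379, chr13:113209659-113218098, plus strand) encodes endocan, a secreted proteoglycan that is among the most widely used tip cell markers and is induced by VEGF. It was counted 94 and 114 times in Pd1fl/fl and 79 and 55 times in Pd1cKO-Tie2. Scaled, these were 6.52 and 8.03 CPM in Pd1fl/fl against 3.31 and 4.03 CPM in Pd1cKO-Tie2, so both Pd1cKO-Tie2 libraries were below both Pd1fl/fl libraries. The exact 95% binomial intervals of the unscaled CPM were 5.29 to 8.01 and 6.86 to 9.98 in Pd1fl/fl and 2.59 to 4.08 and 2.93 to 5.06 in Pd1cKO-Tie2. The difference was thus larger than the counting error of these libraries. Its log2 fold change of -0.99 (standard error 0.69) was the most negative of the 10, with an adjusted p = 0.962 by edgeR's quasi-likelihood test. Esm1 and Apln, both secreted by tip cells, therefore stood on opposite sides in Pd1cKO-Tie2, and neither difference passed the adjusted test.

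Cxcr4 (ENSMUSG00000045382, chr1:128588199-128592293, minus strand) encodes the receptor of the chemokine Cxcl12 and is carried by tip cells and by many leukocytes. It was measured at 6.24 and 9.09 CPM in Pd1fl/fl against at 5.69 and 4.91 CPM in Pd1cKO-Tie2. Both Pd1cKO-Tie2 libraries were lower, but the exact 95% intervals of the unscaled CPM of Pd1fl/fl replicate 1 (5.04 to 7.70) and of both Pd1cKO-Tie2 libraries (4.73 to 6.66 and 3.67 to 6.01) overlapped. In the fit the log2 fold change was -0.53 (standard error 0.63, adjusted p = 1.00 by edgeR's quasi-likelihood test), and it ranged from -0.77 without Pd1fl/fl replicate 1 to -0.23 without Pd1fl/fl replicate 2. The microglia and macrophage markers, cells that can also carry Cxcr4, moved to the same side, with a median log2 fold change of -0.84 over 9 markers. The 2 Pd1cKO-Tie2 libraries differed in these markers, and leaving out replicate 1 or replicate 2 of them gave a median of -0.37 or -1.51. The part of these cells in the Cxcr4 level was not tested.

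Plaur (ENSMUSG00000046223, chr7:24462484-24475968, plus strand) encodes the urokinase receptor, which focuses plasminogen activation at the cell surface and is also found on leukocytes. Its level was 110 and 111 CPM in Pd1fl/fl against 90.0 and 119 CPM in Pd1cKO-Tie2. The Pd1cKO-Tie2 libraries stood on either side of the Pd1fl/fl pair. Its log2 fold change was -0.08 (standard error 0.21, adjusted p = 1.00 by edgeR's quasi-likelihood test), and 0.12 without Pd1cKO-Tie2 replicate 1.

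Cd34 (ENSMUSG00000016494, chr1:194938819-194961279, plus strand) encodes a sialomucin of the endothelial surface, enriched on tip cell filopodia and also present on blood progenitors. It was counted at 1914 and 1711 CPM in Pd1fl/fl against 1985 and 2213 CPM in Pd1cKO-Tie2. The genotypes did not overlap, with a small gap between the upper Pd1fl/fl and the lower Pd1cKO-Tie2 library. The log2 fold change was 0.21 (standard error 0.12, adjusted p = 0.912 by edgeR's quasi-likelihood test), and -0.15 under endothelial scaling. It was 0.14 without Pd1fl/fl replicate 2 or Pd1cKO-Tie2 replicate 2. Of the exon bases of Cd34, 148 overlap a gene on the other strand, Gm16897, whose reads cannot be told apart from it where strand was not used in counting.

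Kcne3 (ENSMUSG00000035165, chr7:100176502-100184869, plus strand) encodes an accessory subunit of potassium channels and was the least abundant of the 10 genes. It had 5 and 11 counts in Pd1fl/fl against 24 and 9 counts in Pd1cKO-Tie2, which were 0.347 and 0.775 CPM and 1.00 and 0.659 CPM. The genotypes overlapped, and Kcne3 passed the filter through 1 library of each genotype. With a log2 fold change of 0.57 and a standard error of 1.53 (adjusted p = 1.00 by edgeR's quasi-likelihood test), and a range from 0.11 to 1.25 without 1 library, a difference was not detectable at this depth. An overlap of 9 exon bases with Gm34821 on the other strand leaves a few reads uncertain.

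Trp53i11 (ENSMUSG00000068735, chr2:93187548-93201759, plus strand) encodes a membrane protein named for its induction by p53. It ranged from 282 and 385 CPM in Pd1fl/fl to 310 and 430 CPM in Pd1cKO-Tie2. The replicates of each genotype differed from each other by more than the genotypes did. The log2 fold change of 0.15 (standard error 0.23, adjusted p = 1.00 by edgeR's quasi-likelihood test) took the other sign under endothelial scaling (-0.22) and without Pd1fl/fl replicate 1 (-0.05) or Pd1cKO-Tie2 replicate 2 (-0.10).

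**Figure D2:**
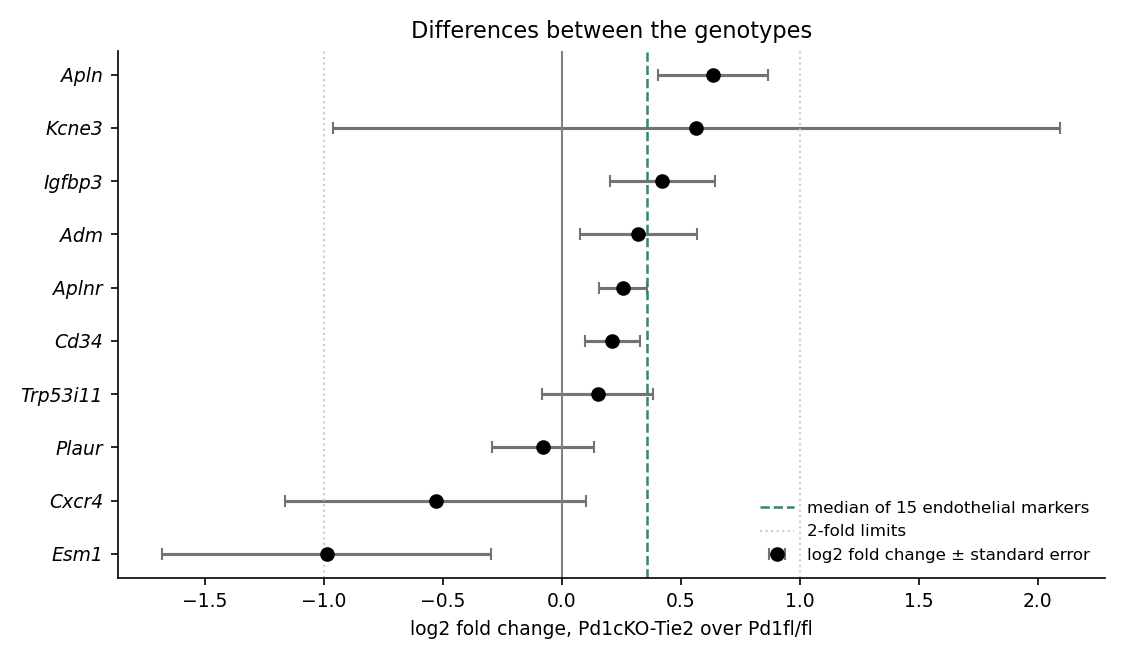
Log2 fold change of Pd1cKO-Tie2 over Pd1fl/fl for each of the 10 genes, with bars of 1 standard error from edgeR's fit. Apln is farthest to the higher side at 0.64 and Esm1 to the lower side at -0.99, no value lies beyond the dotted 2-fold limits, and the dashed line is the median of the 15 endothelial markers at 0.36.

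Per kilobase of exon, the levels of the 10 genes spanned a wide range and kept nearly the same order in both genotypes. In Pd1fl/fl the mean level per kilobase was 378 CPM for Aplnr, 249 CPM for Cd34, 90.3 CPM for Trp53i11, 77.8 CPM for Adm, 51.7 CPM for Igfbp3, 50.5 CPM for Apln, 42.2 CPM for Plaur, 4.24 CPM for Cxcr4, 3.47 CPM for Esm1 and 0.315 CPM for Kcne3. The libraries of neighbours in this order overlapped within Pd1fl/fl between Trp53i11 and Adm, Igfbp3 and Apln, Apln and Plaur, and Cxcr4 and Esm1. In Pd1cKO-Tie2 the level per kilobase of Apln (78.4 CPM) passed that of Igfbp3 (69.2 CPM), and the other 8 genes kept their places. A surface receptor and a sialomucin were thus the most abundant of these transcripts, and the tip cell markers Esm1 and Cxcr4 were among the least abundant.

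The size of a difference was also set against the distance between the libraries of a genotype. In Apln, Aplnr, Igfbp3, Esm1 and Cd34, 5 of the 10 genes, the log2 fold change was larger than the distance within either genotype, as it was in 23.0% of the tested genes with a count in every library. Relative to the median of the endothelial markers, the log2 fold change was 0.28 higher in Apln, 0.06 higher in Igfbp3 and 0.21 higher in Kcne3. For Igfbp3 and Kcne3 this was less than the standard error of the log2 fold change (0.22 and 1.53). The other 7 lay below that median, with differences from -0.04 in Adm and -0.10 in Aplnr to -0.89 in Cxcr4 and -1.35 in Esm1.

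**Figure D3:**
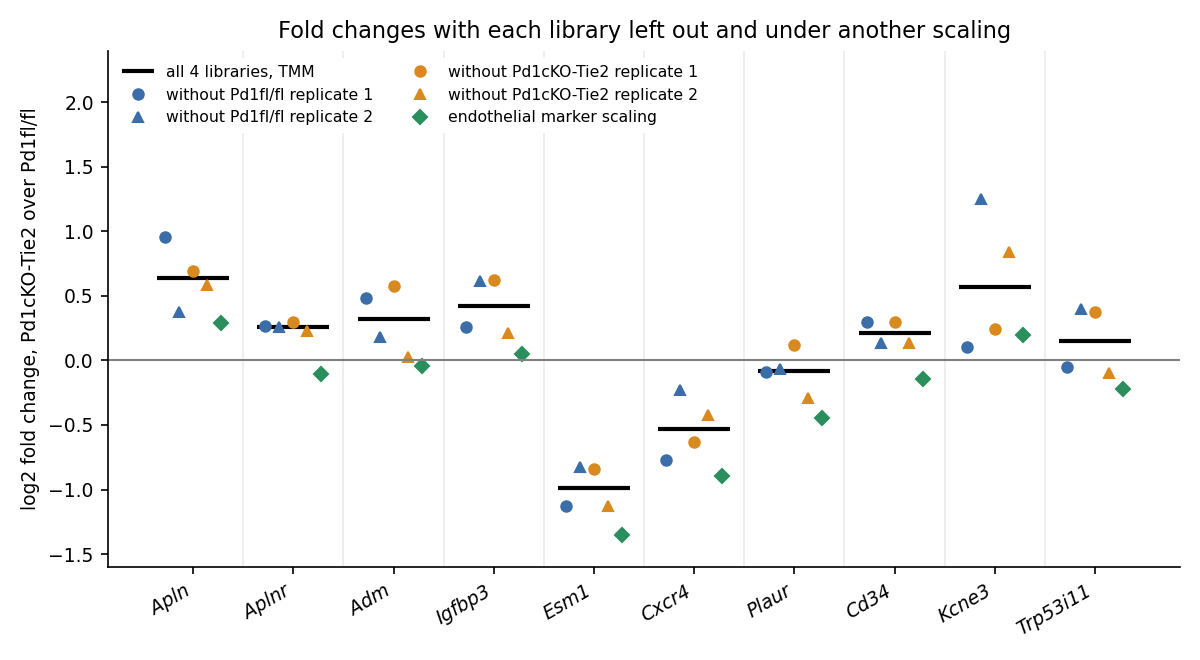
Log2 fold change of each of the 10 genes under TMM scaling (bars), with each library left out in turn and under endothelial marker scaling (points). Esm1 and Cxcr4 are below 0 and Apln, Igfbp3 and Kcne3 above 0 in all analyses drawn, while Aplnr, Adm, Cd34, Trp53i11 and Plaur have at least 1 point on the other side. The standard error of Kcne3 under TMM scaling, 1.53, is larger than any of its values drawn.

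Ligands and receptors that act with these 10 genes were examined as a list of 17 genes, of which 14 were listed in the tables and 13 tested. None met the criterion of the study, which 4.02% of all tested genes met. At an unadjusted p under 0.05, 1 was higher (Plat) and 1 lower (Lrp1), against 2.84% and 3.55% of all tested genes. The genotypes did not overlap in 6 that were higher and 2 that were lower, against 17.7% and 18.1% of all tested genes. Their median log2 fold change was 0.31, but 0.17 without Pd1cKO-Tie2 replicate 1 and -0.08 under endothelial scaling. Without Pd1fl/fl replicate 1 it was 0.07, but over 14 tested genes. With all libraries and 14 tested genes, DESeq2 gave a median of 0.21. For adrenomedullin, whose receptor is Calcrl with a Ramp subunit, Calcrl was at 171 and 206 CPM in Pd1fl/fl against 151 and 181 CPM in Pd1cKO-Tie2. Ramp2, the subunit of the main endothelial form, was at 204 and 177 CPM in Pd1fl/fl against 241 and 253 CPM in Pd1cKO-Tie2 (adjusted p = 0.808 by edgeR's quasi-likelihood test). Ramp3 was at 4.72 and 3.52 CPM in Pd1fl/fl against 13.1 and 8.20 CPM in Pd1cKO-Tie2, a log2 fold change of 1.37 (standard error 0.62, adjusted p = 0.844 in the same edgeR test). Both Ramp genes thus lay higher in both Pd1cKO-Tie2 libraries, whereas Calcrl overlapped.

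For the chemokine pair of Cxcr4, the ligand Cxcl12 was at 244 and 275 CPM in Pd1fl/fl against 242 and 258 CPM in Pd1cKO-Tie2, and the scavenging receptor Ackr3 was at 2.08 and 4.93 CPM and 3.77 and 4.91 CPM. Neither was apart between the genotypes. In the plasminogen system around Plaur, Plat, the tissue-type activator, was at 557 and 435 CPM in Pd1fl/fl against 655 and 705 CPM in Pd1cKO-Tie2, a log2 fold change of 0.46 (standard error 0.16, adjusted p = 0.753 by edgeR's quasi-likelihood test). Plau, the urokinase that Plaur binds, was not tested, with 0 and 39 counts in Pd1fl/fl against 1 and 0 counts in Pd1cKO-Tie2. Lrp1, an endocytic receptor that clears plasminogen activators, was at 181 and 151 CPM in Pd1fl/fl against 86.3 and 108 CPM in Pd1cKO-Tie2, a log2 fold change of -0.77 (standard error 0.21, adjusted p = 0.735 in that edgeR test). Lrp1 is abundant in glia and macrophages as well, whose markers were lower in Pd1cKO-Tie2, and their part in its level was not tested. Around Igfbp3, the ligand Igf1 was at 41.4 and 37.5 CPM in Pd1fl/fl against 10.3 and 32.8 CPM in Pd1cKO-Tie2, and the receptor Igf1r was at 375 and 516 CPM and 586 and 558 CPM. Kcnq1, a potassium channel that Kcne3 can join, was at 85.7 and 63.0 CPM in Pd1fl/fl against 110 and 107 CPM in Pd1cKO-Tie2 (adjusted p = 0.807 by edgeR's quasi-likelihood test).

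**Figure D4:**
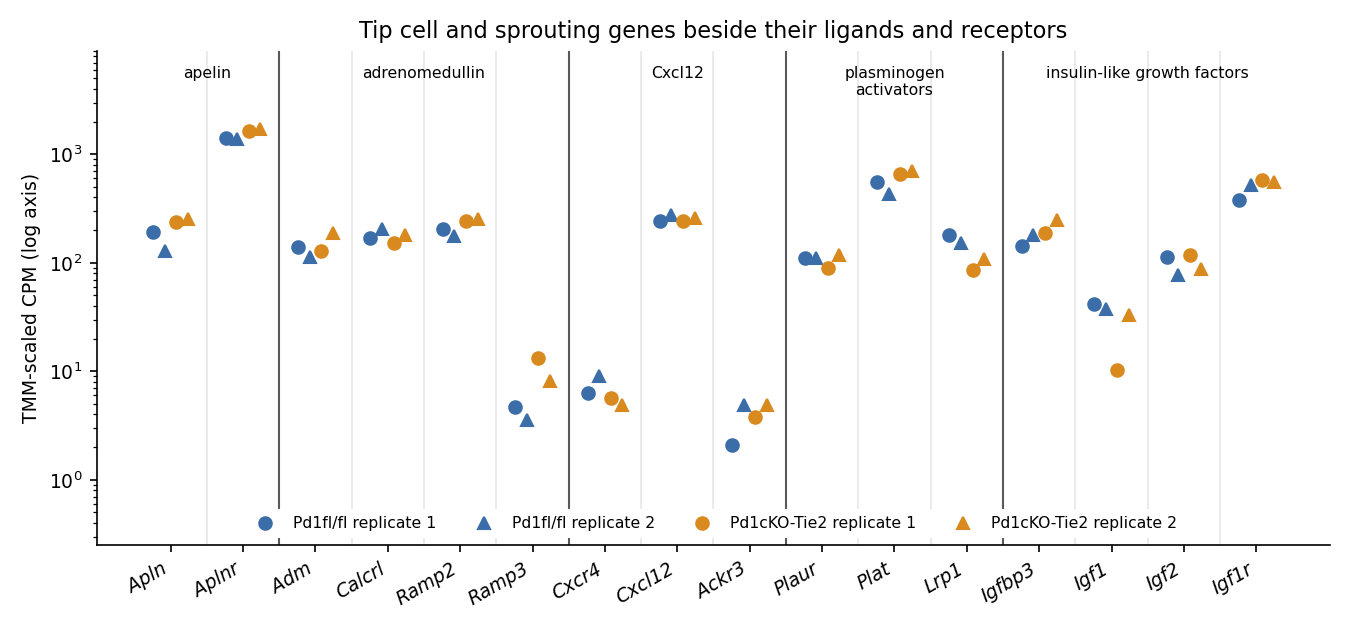
TMM-scaled CPM (log axis) of 6 of the 10 genes beside their ligands, receptors and protease partners, grouped by system, where each point is 1 library. Plat, Ramp2 and Ramp3 are higher and Lrp1 and Igf1 lower in both Pd1cKO-Tie2 libraries, and Calcrl, Cxcl12 and Ackr3 overlap; heights are not scaled to gene length and are not compared between genes.

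A further 20 genes known from tip cells were all tested, and 0 met the criterion of the study (4.02% of all tested genes did). At an unadjusted p under 0.05, 4 were higher and none lower, against 2.84% and 3.55% of all tested genes. The median log2 fold change was 0.09, with 0.23 without Pd1fl/fl replicate 2 and -0.27 under endothelial scaling. Pdgfb, which recruits pericytes, was at 67.0 and 68.4 CPM in Pd1fl/fl against 102 and 101 CPM in Pd1cKO-Tie2, a log2 fold change of 0.58 (standard error 0.19, adjusted p = 0.735 by edgeR's quasi-likelihood test). Unc5b, a netrin receptor of tip cells, was at 70.8 and 67.1 CPM in Pd1fl/fl against 93.2 and 116 CPM in Pd1cKO-Tie2 (log2 fold change 0.60, adjusted p = 0.753 by the same edgeR test). Kdr, the main VEGF receptor, had a log2 fold change of 0.28 and an adjusted p = 0.753 in that edgeR test. The fourth was Robo4, and Kdr and Robo4 also belong to the endothelial markers. Dll4, the Notch ligand of tip cells, was at 64.2 and 81.2 CPM in Pd1fl/fl against 71.2 and 83.1 CPM in Pd1cKO-Tie2, and Angpt2, which loosens vessels, was at 17.9 and 33.5 CPM and 26.2 and 19.7 CPM, so that both overlapped. Dll4 and Angpt2 were chosen after their values were seen.

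Genes of stalk cells and quiescent endothelium, the counterpart of the tip cell, were examined as a list of 17, all of them tested. None met the criterion (4.02% of all tested genes did), and 3 were higher at an unadjusted p under 0.05, against 2.84% of all tested genes. Their median log2 fold change of 0.05 rested on single libraries, with 0.34 without Pd1fl/fl replicate 1, 0.00 without Pd1fl/fl replicate 2, 0.10 without Pd1cKO-Tie2 replicate 1 and 0.21 without Pd1cKO-Tie2 replicate 2, and it was -0.31 under endothelial scaling. These 3 were Eng, a coreceptor for bone morphogenetic proteins (log2 fold change 0.36), Vwf, the clotting factor carrier (0.47), and Flt1, the decoy VEGF receptor (0.39), each with an adjusted p = 0.735 by edgeR's quasi-likelihood test. Eng and Flt1 are also endothelial markers. Whether the tip cell and the stalk cell genes differed from each other was not tested.

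Hypoxia induces Adm and other genes of vessel growth, and a list of 12 hypoxia targets had 11 tested genes with a median log2 fold change of 0.21, or -0.13 under endothelial scaling. Of these, 0 were higher and 1, Car9, lower by the criterion of the study, against 1.41% and 2.61% of all tested genes. Car9 passed the filter on low counts through the Pd1fl/fl libraries alone, so it could only be called lower, and its call is no support for a difference. Car9, a carbonic anhydrase, was at 0.763 and 0.775 CPM in Pd1fl/fl against 0 in both Pd1cKO-Tie2 libraries. The limit of 3 counts per library in Pd1cKO-Tie2 lay 4.45-fold below the Pd1fl/fl mean. Counting error of the 11 counts in each Pd1fl/fl library is not part of this value, so the difference can be smaller. Of the 10 alternatives that tested Car9, all gave a negative log2 fold change and 4 met the criterion. Slc2a1, the glucose transporter of the blood-brain barrier, was at 3543 and 3624 CPM in Pd1fl/fl against 4621 and 4509 CPM in Pd1cKO-Tie2 (log2 fold change 0.35, adjusted p = 0.735 by edgeR's quasi-likelihood test). Pdk1, a kinase that turns pyruvate away from the mitochondria, was at 40.9 and 39.7 CPM and 25.7 and 22.6 CPM (log2 fold change -0.74, adjusted p = 0.753 in the same edgeR test). With Car9 left aside, hypoxia targets other than Adm were thus on both sides.

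The markers of other cells that such a preparation could hold moved with the genotypes in part. All 15 endothelial markers had both Pd1cKO-Tie2 libraries above both Pd1fl/fl libraries (17.7% of all tested genes did). At an unadjusted p under 0.05, 8 of them were higher (2.84% of all tested genes were). Among the 8 was Cldn5, a tight junction protein of brain endothelium, at a log2 fold change of 0.40 (adjusted p = 0.735 by edgeR's quasi-likelihood test). All 9 microglia and macrophage markers had a negative log2 fold change, while 49.6% of all tested genes had one above 0. In 6 of the 9 both Pd1cKO-Tie2 libraries lay below both Pd1fl/fl libraries (18.1% of all tested genes did so). Cx3cr1, Cd68 and Mrc1 overlapped between the genotypes. At an unadjusted p under 0.05, 3 of the 9 were lower (3.55% of all tested genes were). Among the 3 was Csf1r, the receptor that keeps microglia alive, at 508 and 620 CPM in Pd1fl/fl against 235 and 434 CPM in Pd1cKO-Tie2. C1qa, a complement subunit of microglia, was at 433 and 542 CPM and 171 and 397 CPM. The 7 radial glia and astrocyte markers summed to 806 and 829 CPM in Pd1fl/fl against 537 and 404 CPM in Pd1cKO-Tie2. Of the 7, 5 were lower at an unadjusted p under 0.05 (3.55% of all tested genes were) and 2 by the criterion of the study (2.61%). The median log2 fold change of these markers was -0.79, and -1.02 to -0.69 without 1 library. The most abundant of them were Slc1a3, a glutamate transporter, at 393 and 390 CPM in Pd1fl/fl against 242 and 211 CPM in Pd1cKO-Tie2, and Fabp7, a fatty acid binding protein of radial glia, at 167 and 201 CPM and 97.8 and 84.5 CPM. Aqp4 and Sox2 overlapped between the genotypes, with log2 fold changes of -0.22 and 0.22. The 8 neutrophil markers summed to 914 and 24.6 CPM in Pd1fl/fl against 55.5 and 1.32 CPM in Pd1cKO-Tie2, so that Pd1fl/fl replicate 1 stood apart, and 0, 4, 3 and 5 of them were at 0 in the 4 libraries in that order. Ngp, a granule protein, was at 413 and 0 CPM in Pd1fl/fl against 1.17 and 0 CPM in Pd1cKO-Tie2, and Mpo, the myeloperoxidase, at 168 and 23.9 CPM and 53.5 and 0 CPM. Sums over the 10 tip cell and sprouting genes were 4191 and 4040 CPM in Pd1fl/fl against 4582 and 5166 CPM in Pd1cKO-Tie2, on the same side as the endothelial sum. Aplnr and Cd34 made up 75.8% to 79.1% of these sums, and the other 8 genes together summed to 877 and 935 CPM in Pd1fl/fl against 963 and 1249 CPM in Pd1cKO-Tie2, although Esm1, Cxcr4 and Plaur had negative log2 fold changes. The part of the cell mixture in these differences was not tested.

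Markers of other lineages gave no split between the genotypes in their sums. The sum was 5528 and 3570 CPM in Pd1fl/fl against 3678 and 3682 CPM in Pd1cKO-Tie2 for 8 pericyte and smooth muscle markers, led by Rgs5 and Kcnj8. It was 82.5 and 34.7 CPM against 30.5 and 55.0 CPM for 5 fibroblast markers, led by Col1a2 and Pdgfra. It was 844 and 1235 CPM against 1019 and 904 CPM for 8 neuronal markers, led by Dcx and Map2. It was 135 and 81.1 CPM against 160 and 84.1 CPM for 5 oligodendrocyte lineage markers, led by Olig1 and Cnp, and 642 and 556 CPM against 574 and 1069 CPM for 6 erythroid markers, led by Hba-a1 and Hbb-bs.

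**Figure D5:**
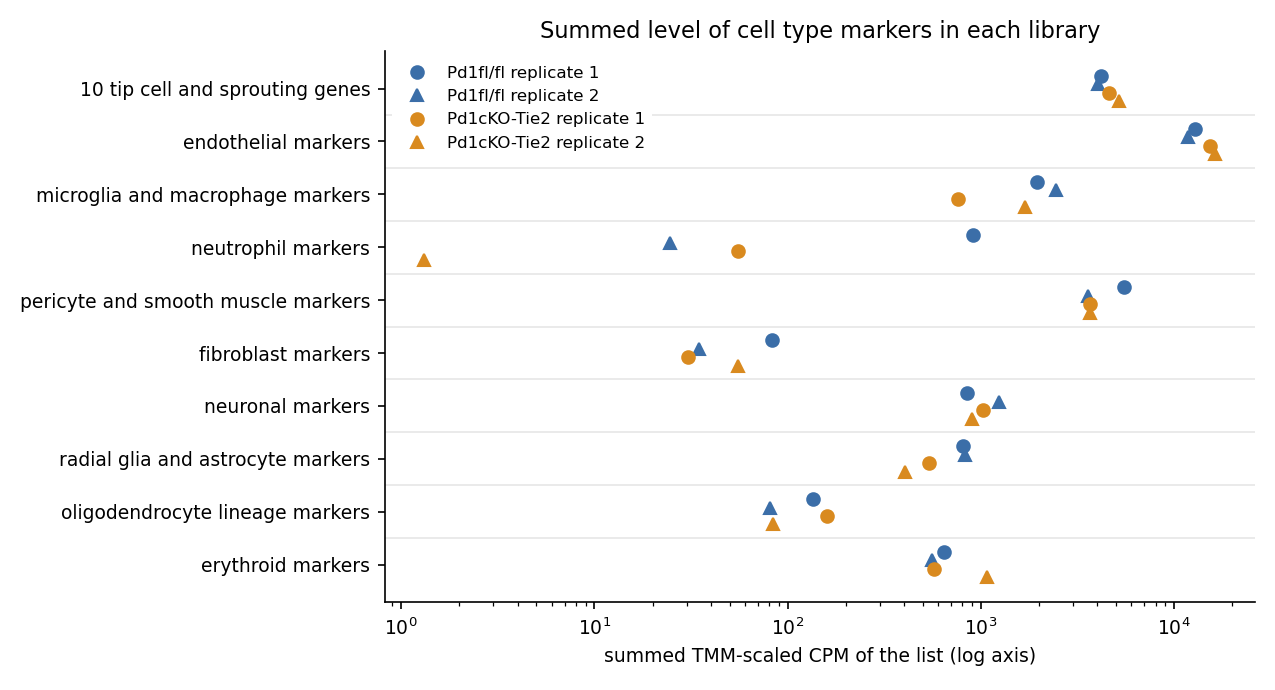
Summed TMM-scaled CPM (log axis) of the 10 genes and of each list of cell type markers in the 4 libraries, where each point is 1 library. The sums of the 10 genes and of the endothelial markers are higher, and those of the microglia and radial glia markers lower, in both Pd1cKO-Tie2 libraries, while Pd1fl/fl replicate 1 has the highest neutrophil sum.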

How the data were processed

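RNA of P0 brain endothelial cells (Pd1fl/fl and Pd1cKO-Tie2, 2 libraries each) was sequenced on an Illumina HiSeq instrument. The authors deposited 4 tables of whole-number counts per gene, without normalization, each pairing 1 library of either genotype. The same tables hold CPM columns that the authors made from each library's total, used here only to recover the totals, and columns of the authors' own comparisons (fold changes and p-values), which were not used. The submitters' processing notes name TopHat2 2.0.12, Bowtie2 2.2.3, HTSeq 0.6.0 and mm9, whereas the deposited positions are those of GRCm38 (90.1% equal GENCODE M21, and those of all 10 genes do). Whether counting used strand is not given in the sources used here.

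Joining gave 21578 genes. In 2 tables up to 5 broken lines were skipped, and 0 counts differed between tables. Genes absent from a library's tables were given a count of 0, and the unlisted reads made up at most 0.0107% of a library. edgeR 4.0.16 (R 4.3.3) tested the 15909 genes that filterByExpr kept, on TMM-scaled libraries without covariates, with Benjamini-Hochberg adjustment over all tested genes, and its common biological coefficient of variation was 0.610. The criterion for a called gene (2-fold, p of 0.05) is that of the study's methods. Standard errors are the log2 fold change over the square root of F. Alternatives were DESeq2 1.42.0, limma-voom (limma 3.58.1), other scalings and filters, a replicate block and leaving out each library. Scaling to the endothelial markers was added after seeing the data. The edgeR step was tested on simulated data.

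The 10 genes and the 13 gene lists were chosen with earlier results of these data known. Named are all 10 genes, the 3 genes of each list with the smallest p (for markers of other cells, the 2 most abundant), and Pdcd1. Some members of the partner list are not reported here one by one. Other genes, such as partners of the 10 genes and Xist, were named after their values were seen. Sequences and windows came from RefSeq, and tables were written with Python 3.11.15.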

Additional observations from a re-analysis of the deposited data

How the results depend on the processing

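Under 13 alternatives, 12 of them planned, the 10 genes gave 129 fold changes. Of these, 122 kept their direction and their side of the study's criterion. In none of the alternatives did any of the 10 meet the study's criterion or reach an adjusted p under 0.05, and the smallest adjusted p was 0.269. The count with an unadjusted p under 0.05 ranged from 0 to 2. Scaling to the endothelial markers, chosen after seeing the data, moved the median of the 10 genes from 0.23 to -0.12 and gave -0.10 for Aplnr, -0.039 for Adm, -0.15 for Cd34 and -0.22 for Trp53i11, because it shifts all genes (their median to -0.36). It left Apln alone on the higher side without overlap and put Aplnr, Esm1, Cxcr4, Plaur and Cd34 on the lower side, where 5.81% of all tested genes were higher and 40.6% lower. Without 1 library at a time, the median of the 10 genes ranged from 0.080 (without Pd1cKO-Tie2 replicate 2) to 0.30, the log2 fold change of Plaur from -0.29 to 0.12 and that of Trp53i11 from -0.10 to 0.40. Over the same analyses Apln ranged from 0.38 to 0.96 and Esm1 from -1.13 to -0.83. The genotypes share only a column number, and same-numbered libraries did not deviate together (correlation -0.03). The replicate block lowered the count of called genes from 640 to 445 and gave log2 fold changes of 0.66 for Apln and 0.26 for Aplnr, the latter no longer at an unadjusted p under 0.05. Among the gene lists, the number of lower genes meeting the criterion varied for markers of neutrophils (2, then 6 under DESeq2 or with no filter, 0 under limma-voom, none tested with at least 10 counts, and 0 to 7 without 1 library), of microglia (0, then 3 under limma-voom, 1 with library size scaling, 2 with the replicate block, 5 with endothelial scaling, and 0 to 8 without 1 library) and of radial glia (2, then 1 under limma-voom, 3 with library size scaling, 5 with endothelial scaling, and 0 to 4 without 1 library), and for hypoxia targets (1, then 0 in 9 alternatives, in 3 of which Car9 was not tested, and 2 with endothelial scaling). The other lists moved by at most 1 gene. Of the 8 neutrophil markers, 3 were tested in the main edgeR fit and under limma-voom, but 8 under DESeq2 or with no filter. Over all genes, 640 of 15909 met the criterion in the main edgeR fit, of which 35% were higher. The count was 936 of 21578 under DESeq2, 698 of 21578 with no filter and 504 of 15909 under limma-voom. With endothelial scaling it was 995 of 15909, of which 13.9% were higher, so lower calls rose over all genes too. Kcne3 was not tested where at least 10 counts were required in every library. With 2 libraries per genotype, differences below 2-fold in genes with few counts, such as Esm1, Cxcr4 and Kcne3, were not resolved.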
